A study of Mus musculus with 8 samples.

Results

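The S100 genes encode small EF-hand proteins that bind calcium, and 10 of them were followed in the RNA of 4T1 cells, an established mouse mammary carcinoma line: S100a1, S100a4, S100a6, S100a8, S100a9, S100a10, S100a11, S100a13, S100a14 and S100a16. The members were taken by gene symbol, and all 10 were found among the 24787 rows of the deposited table. RNA was sequenced from 4 libraries of cells with Etv5 knocked down by an shRNA and from 4 libraries of cells with a control shRNA. The labels give the genotype of the first group as Etv5 knockdown and that of the second as WT. The column headers name the constructs sh2 and NT, so libraries of a group seem to share 1 construct in 1 cell line, and no age, drug or time point is given. Etv5 encodes an ETS transcription factor of the PEA3 group. Nothing in the labels says that replicates were separate cultures, so p-values measure only the spread between these libraries, which may be technical.

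S100 proteins work mostly as dimers that change shape when calcium binds and then dock on target proteins such as annexins and myosin. Some leave the cell by routes that bypass the secretory pathway and act on receptors such as RAGE, encoded by Ager, and TLR4. In mammary tumours S100a4 and S100a6 are known from studies of migration and metastasis, while S100a8 and S100a9 are best known as products of neutrophils and monocytes.

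All 10 genes lie on chromosome 3 of mm10. S100a1, S100a13, S100a14, S100a16, S100a4, S100a6, S100a8 and S100a9 lie in this order between positions 90511034 and 90695721. S100a2, S100a3, S100a5 and S100a7a lie among them. S100a11 and S100a10 lie together between 93520488 and 93564643. Their RNAs are short: the longest annotated transcript was under 1000 bases for 8 of the 10, with S100a16 at 1127 bases and S100a14 at 1683 bases as the longer pair. The RefSeq promoter table, on GRCm38.p6, held 8 of the 10 members, all except S100a10 and S100a14. The 250 bases before the RefSeq start are printed for the 3 members on which the results below turn. These are S100a11, whose mean was higher in the Etv5 shRNA group in every setting tried, and S100a6 with the nearby S100a4, the pair that moved most alike. Capitals mark matches to an ETS motif, GGAAGT, or an AP-1 motif, TGANTCA, on either strand.
S100a11, chr3:93520246-93520495, + strand: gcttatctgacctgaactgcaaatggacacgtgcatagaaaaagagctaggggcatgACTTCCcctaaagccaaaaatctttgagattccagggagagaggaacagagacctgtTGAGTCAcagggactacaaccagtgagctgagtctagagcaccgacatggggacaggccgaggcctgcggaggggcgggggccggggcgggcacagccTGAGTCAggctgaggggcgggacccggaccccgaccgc
S100a6, chr3:90612644-90612893, + strand: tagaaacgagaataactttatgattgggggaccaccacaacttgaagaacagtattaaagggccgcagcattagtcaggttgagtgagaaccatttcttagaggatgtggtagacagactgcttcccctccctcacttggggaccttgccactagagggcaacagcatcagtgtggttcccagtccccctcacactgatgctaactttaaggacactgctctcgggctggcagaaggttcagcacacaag
S100a4, chr3:90603520-90603769, + strand: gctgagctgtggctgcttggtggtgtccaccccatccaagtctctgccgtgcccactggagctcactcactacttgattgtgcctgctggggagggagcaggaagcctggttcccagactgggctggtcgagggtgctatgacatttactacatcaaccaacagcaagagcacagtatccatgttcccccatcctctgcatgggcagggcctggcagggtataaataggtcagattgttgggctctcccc
The S100a11 window held 1 match to GGAAGT, read as its reverse complement and starting at position -193, and 2 matches to TGANTCA, at -136 and -38, counted back from the start. The S100a6 and S100a4 windows held neither motif, nor a longer ETS motif, CCGGAAG, nor an NF-kB motif, GGANTTTCC. Among the 8 matched members, 4 held GGAAGT (S100a1, S100a8, S100a9 and S100a11) and 2 held TGANTCA (S100a11 and the second window of S100a16). No window of a member held CCGGAAG or GGANTTTCC. Of all 32851 promoter windows of this length, 19.7% held GGAAGT, 6.9% CCGGAAG, 6.7% TGANTCA and 1.1% GGANTTTCC. A match says only that these letters are in the window.

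The deposited values were read as coverage per base of a gene after scaling to library depth, which no label states. On that reading they are per length. Comparisons of level between genes are only rough, because some libraries also leaned with transcript length, as given below. Read depth is unknown, and values summed to between 256510 and 390495 in the Etv5 shRNA libraries and between 254792 and 308393 in the control libraries. The targeted gene, Etv5, had 13.04, 11.2, 7.52 and 12.7 in Etv5 shRNA libraries 1 to 4, against 15.2, 15.1, 11.7 and 14.4 in control libraries 1 to 4. Control library 3 lay below 2 of the Etv5 shRNA libraries, and the other control libraries lay above all 4. Limma gave Etv5 a log2 fold change of -0.33 with an adjusted p of 0.819, and of -0.17 (0.422) without Etv5 shRNA replicate 3 and -0.26 (0.0675) without replicate 3 of either group. With libraries weighted by quality Etv5 was called lower (-0.19, adjusted p 0.0392 by limma), beside 14.2% of all tested genes. Of its 50-base stretches, 26.8% are shared with Gm4798, which makes its level uncertain. Epithelial markers summed to between 1304 and 3112 in Etv5 shRNA libraries and between 1289 and 1755 in control libraries, with Krt5 alone of the 8 under 1 throughout. Of 12 leukocyte markers, 10 were under 1 in every library.

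Replicate 3 of the Etv5 shRNA group stood apart, and it bears on every S100 value. It had 13920 genes above 0, against 15133 to 15250 in the other Etv5 shRNA libraries and 15126 to 15379 in the control libraries. Its values ran high for short transcripts and low for long ones: relative to the mean of Etv5 shRNA replicates 1, 2 and 4, the median gene with a transcript under 1000 bases stood at 1.98 times, and the median gene of 4000 bases or more at 0.394 times. Replicate 3 of the control group leaned the same way by less, at 1.30 and 0.786 times the mean of the other control libraries. The members are therefore given with all 8 libraries and without Etv5 shRNA replicate 3, and where a call or sign turns on it also without replicate 3 of either group, a choice made after seeing the data.

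No S100 gene passed the test with all 8 libraries, nor without Etv5 shRNA replicate 3; of all tested genes, 0.00852% were called higher and 0.486% lower with 8 libraries, and 1.08% higher and 2.05% lower without that replicate. S100a6 was among the most abundant RNAs of these cells in both groups, and S100a11, S100a10 and S100a4 were abundant too. S100a11, an annexin-binding member, averaged 1.50-fold higher in Etv5 shRNA libraries, and 1.24-fold higher without replicate 3; it passed the test only in some of the other settings given below. The values of the remaining members in Etv5 shRNA libraries lay near or below control once replicate 3 was left out. S100a8 and S100a9 were close to 0.

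By level, the 8 tested members ranged widely. S100a6 ranked between 2 and 7 among all genes in the Etv5 shRNA libraries and between 3 and 9 in the control libraries. S100a11 ranked between 41 and 64 in the Etv5 shRNA libraries and between 66 and 80 in the control libraries; S100a10 and S100a4 ranked between 46 and 130 in the Etv5 shRNA libraries and between 66 and 93 in the control libraries. In control libraries the means of S100a11, S100a10 and S100a4 were 395, 381 and 337, differences smaller than the SD of any of the 3. S100a1 and S100a13 were of middle level, with control means of 26.1 and 9.73, and S100a16 and S100a14 were low, with control means of 0.949 and 0.925 that differ by less than their SDs. The 10 members together made up 0.927%, 0.853%, 2.45% and 1.10% of the summed values in Etv5 shRNA libraries 1 to 4, against 0.911%, 1.03%, 1.32% and 0.819% in control libraries 1 to 4. The highest share was that of Etv5 shRNA replicate 3, and without it the shares of the groups overlapped.

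**Figure D1:**
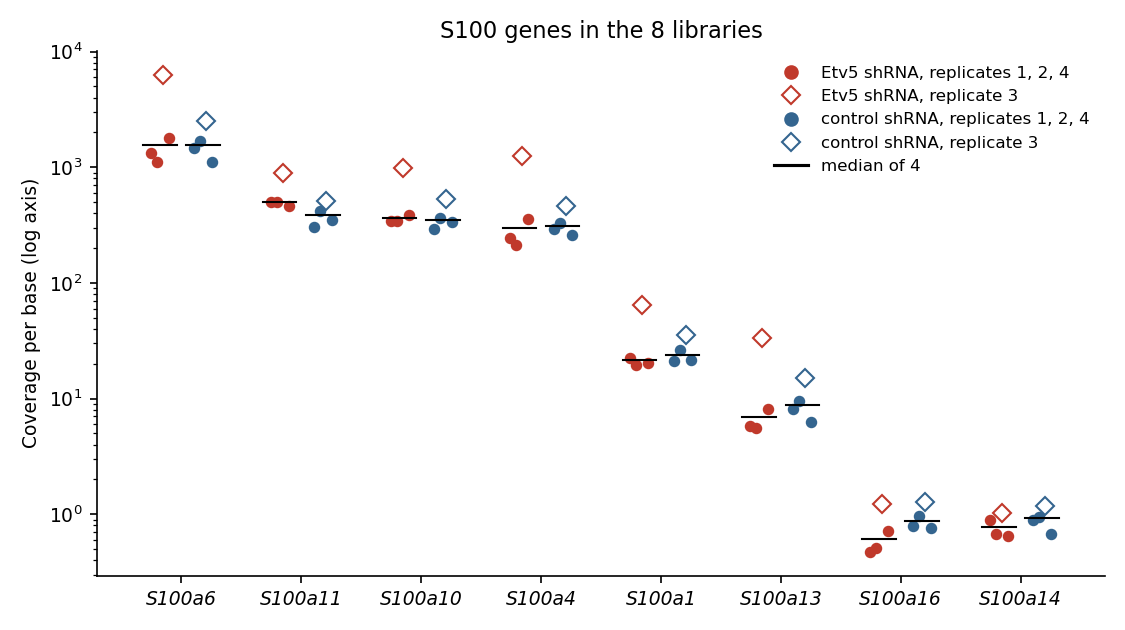
Coverage per base on a log axis for the 8 tested S100 genes, with Etv5 shRNA libraries in red on the left of each gene and control libraries in blue on the right; diamonds are the third libraries and lines are medians of 4. In each group the diamond is the highest point for every gene, up to 6318 for S100a6 in Etv5 shRNA replicate 3.

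S100a6, or calcyclin, binds annexins and the calcyclin-binding protein and is known from proliferating cells. It had 1325, 1104, 6318 and 1788 in Etv5 shRNA libraries 1 to 4, against 1458, 1684, 2524 and 1113 in control libraries 1 to 4. The third library was the highest of each group, and the other 3 Etv5 shRNA libraries lay within the range of the control libraries, except replicate 2, which was just under it. The means were 2634 ± 2472 in Etv5 shRNA libraries and 1695 ± 601 in control libraries (SD, n = 4 each), a log2 fold change of 0.32 with an adjusted p of 0.893 by limma. Without Etv5 shRNA replicate 3 the mean was 1406 ± 349 (SD, n = 3), and the log2 fold change was -0.23 with an adjusted p of 0.689. The sign of the S100a6 difference thus turned on 1 library.

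S100a4, known as metastasin and a partner of the heavy chain of non-muscle myosin, followed S100a6 closely at a lower level. Its values were 245, 213, 1261 and 355 in Etv5 shRNA libraries 1 to 4, against 295, 329, 466 and 257 in control libraries 1 to 4. Again the third libraries were highest, and the remaining Etv5 shRNA libraries straddled the lower end of the control range. The limma log2 fold change was 0.25 with an adjusted p of 0.899 in all 8 libraries, and -0.31 with an adjusted p of 0.495 without Etv5 shRNA replicate 3. Of the 50-base stretches of S100a4, 56.3% also occur in Gm42674, an overlapping gene on the same strand that has no row in the table, so the level of S100a4 is uncertain.

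S100a11, or calgizzarin, pairs with annexin Anxa1 and is found in membrane repair and in the growth control of epithelial cells. It had 499, 503, 897 and 466 in Etv5 shRNA libraries 1 to 4, against 307, 416, 508 and 351 in control libraries 1 to 4. All 4 Etv5 shRNA libraries were above control libraries 1, 2 and 4, and control library 3 overlapped them. The means were 591 ± 205 in Etv5 shRNA libraries and 395 ± 87.3 in control libraries (SD, n = 4 each), and the limma log2 fold change was 0.55, with a 95% interval from -0.04 to 1.14 and an adjusted p of 0.746. Without Etv5 shRNA replicate 3 the Etv5 shRNA mean was 489 ± 20.4 (SD, n = 3), and the log2 fold change was 0.33, with an interval from -0.05 to 0.71 and an adjusted p of 0.335.

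Without replicate 3 of either group the log2 fold change of S100a11 was 0.46, with an adjusted p of 0.0368 by limma, and the 3 Etv5 shRNA values were all above the 3 control values. S100a11 was higher in the Etv5 shRNA group under each of 19 other settings, with log2 fold changes between 0.33 and 0.73, and passed the test in 3 of them. Pseudogenes that have no row in the table, Gm12854, Gm7665 and Gm29240, share 41.1% of the 50-base stretches of S100a11, so its level is uncertain. Of all tested genes, 3.58% were called higher without replicate 3 of either group, and groups did not overlap, in either direction, for 31.3%.

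S100a10, the light chain of the annexin A2 complex that gathers plasminogen at the cell surface, lies next to S100a11. It had 341, 340, 993 and 387 in Etv5 shRNA libraries 1 to 4, against 292, 365, 529 and 336 in control libraries 1 to 4. Apart from the third libraries, the groups overlapped. The limma log2 fold change was 0.31 with an adjusted p of 0.879, and -0.06 with a 95% interval from -0.49 to 0.36 and an adjusted p of 0.886 without Etv5 shRNA replicate 3. Without replicate 3 of either group the Etv5 shRNA mean of S100a10 was 1.075 times the control mean. Its log2 fold change was positive in 18 of 19 other settings, and it was called in none.

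S100a1, best known from heart muscle, where it acts on calcium release and uptake, had 22.6, 19.6, 64.7 and 20.4 in Etv5 shRNA libraries 1 to 4, against 21.2, 26.3, 35.3 and 21.7 in control libraries 1 to 4. Its log2 fold change was 0.11 with an adjusted p of 0.929 by limma, and -0.28 with an adjusted p of 0.382 without Etv5 shRNA replicate 3. S100a13, which takes part in the export of Fgf1 and of the interleukin encoded by Il1a, had 5.80, 5.56, 33.4 and 8.16 in Etv5 shRNA libraries 1 to 4, against 8.09, 9.43, 15.2 and 6.22 in control libraries 1 to 4. For both genes the third Etv5 shRNA library was far above every other library, and the rest overlapped. S100a13 had a log2 fold change of 0.09 with an adjusted p of 0.962 by limma, and of -0.47 with an interval from -1.01 to 0.08 and an adjusted p of 0.337 without that library.

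S100a14 and S100a16 were near the value of 0.5 at which genes entered the test. S100a16 had 0.473, 0.513, 1.22 and 0.709 in Etv5 shRNA libraries 1 to 4, against 0.790, 0.966, 1.28 and 0.758 in control libraries 1 to 4. Etv5 shRNA libraries 1, 2 and 4 were all under the lowest control library, while library 3 was within the control range. Without library 3 groups did not overlap, in either direction, for 20.2% of all tested genes. The limma log2 fold change of S100a16 was -0.19 with an adjusted p of 0.879, and -0.31 with an interval from -0.57 to -0.05 and an adjusted p of 0.185 without Etv5 shRNA replicate 3. S100a14 had 0.892, 0.674, 1.03 and 0.649 in Etv5 shRNA libraries 1 to 4, against 0.894, 0.953, 1.18 and 0.675 in control libraries 1 to 4, with a log2 fold change of -0.09 and an adjusted p of 0.884. At such levels a log2 fold change on log2(value + 1) understates a difference.

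S100a8 and S100a9 form calprotectin, which binds zinc and draws myeloid cells, and both fell below the filter for the test. S100a8 was listed at 0, 0.00396, 0.711 and 0.121 in Etv5 shRNA libraries 1 to 4, against 0.242, 0.735, 0.549 and 0.333 in control libraries 1 to 4. S100a9 was listed at 0 in all 4 Etv5 shRNA libraries and in control libraries 2 to 4, and at 0.263 in control library 1. An exact permutation test of S100a8 over 70 assignments gave a two-sided p of 0.229, or 0.457 adjusted over the 2 genes, and that of S100a9 gave a p of 1; the smallest p this design allows is 0.0286. The 3 values of S100a8 that remain without Etv5 shRNA replicate 3 all lay below the 4 control values. Groups did not overlap, in either direction, for 20.2% of all tested genes in that setting. The difference in mean coverage of S100a8 without that library was -0.423, against -0.256 with all 8 libraries. The exact two-sided permutation p was then 0.0571, or 0.114 adjusted over the 2 genes, and that of S100a9 stayed at 1. Leukocyte markers were low too: their summed level was 6.27 to 7.82 in Etv5 shRNA libraries and 7.73 to 9.85 in control libraries, Cd68 and Cd14 made up nearly all of it, and Adgre1, Elane, Mpo and Csf3r were at 0 in every library. In bulk RNA, fewer cells that express a gene and less RNA per cell cannot be told apart.

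Over the members, 0 of 8 tested genes were called higher and 0 lower with all 8 libraries, beside 0.00852% and 0.486% of all 11731 tested genes. None of the 8 had an unadjusted p under 0.05, against 7.09% of all tested genes. The groups did not overlap for 0 of the 8, beside 9.1% of all tested genes. The median log2 fold change of the 8 was 0.18, against -0.11 for all tested genes. The members are mostly short, and with the length trend removed in all 8 libraries these medians were 0.023 and -0.00014. Without Etv5 shRNA replicate 3, 0 of 8 were called higher and 0 lower, beside 1.08% and 2.05% of all tested genes, and 1 of 8, S100a16, had an unadjusted p under 0.05, against 18.8% of all tested genes. S100a16 was also the 1 member whose groups did not overlap, beside 20.2% of all tested genes. The members' median was then -0.26, against -0.0029 for all tested genes, where the members' median varied between the replicates kept by 0.269 (SD, and 0.584 with all 8 libraries). That setting kept control replicate 3, the highest control library for all 8 members. Without replicate 3 of either group the members' median was -0.11, against -0.0105 for all tested genes.

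Other ways of dealing with the third library gave more calls among the members, but also among all genes. Without replicate 3 of either group 1 of 8 was called higher (S100a11) and 0 lower, beside 3.58% and 5.33% of all tested genes, and groups did not overlap for 2 of 8 (S100a11 and S100a16), beside 31.3%. With the trend in transcript length removed and Etv5 shRNA replicate 3 left out, S100a11 was again the member called higher, with a log2 fold change of 0.50 and an adjusted p of 0.0261, and 0 were lower, beside 3.71% and 4.42% of all tested genes. With libraries weighted by their quality, S100a11 was called higher (0.43, adjusted p 0.00721), and S100a13 (-0.42, adjusted p 0.031) and S100a16 (-0.32, adjusted p 0.00632) were called lower, beside 12.9% and 14.2% of all tested genes. S100a11 had the same sign in all of these, whereas S100a1, S100a4, S100a6 and S100a13 had a positive sign in all 8 libraries and a negative one in each.

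**Figure D2:**
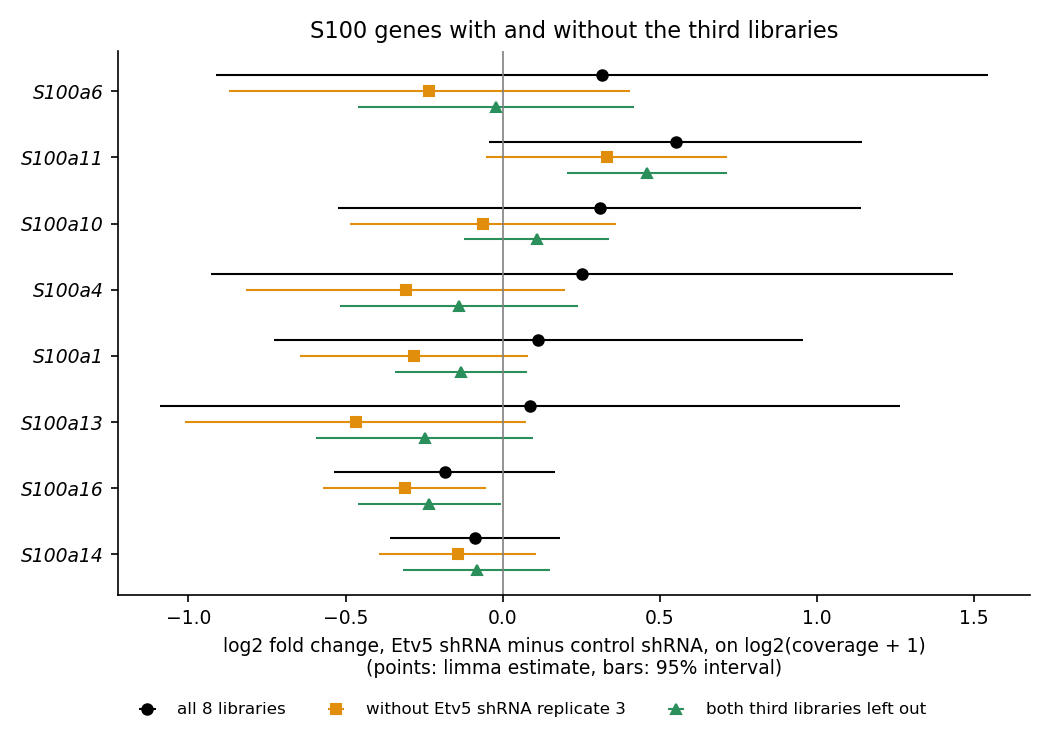
Log2 fold change of Etv5 shRNA minus control shRNA for the 8 tested S100 genes, on log2(coverage + 1), with 95% intervals from limma, in all 8 libraries, without Etv5 shRNA replicate 3 and with replicate 3 of both groups left out. S100a11 lies right of 0 in all 3, at 0.55, 0.33 and 0.46, while S100a6 and S100a4 cross from positive to negative.

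The height of the third Etv5 shRNA library differed from member to member. Relative to the mean of Etv5 shRNA replicates 1, 2 and 4, it stood at 5.14 times for S100a13, 4.65 for S100a4, 4.49 for S100a6, 3.10 for S100a1 and 2.79 for S100a10. It stood at 2.16 times for S100a16, 1.83 for S100a11 and 1.39 for S100a14. The median over all tested genes was 0.644, and that over the 856 tested genes with a transcript under 1000 bases was 1.98, with quartiles of 0.572 and 3.20. S100a13, S100a4 and S100a6 were thus higher in this library than 93.6%, 90.8% and 89.5% of such short genes, while S100a11 was higher than 47.2%. Such short genes include microRNA and snoRNA rows, whose ratios in this library were very low for some and high for others. The members were not set against short mRNAs alone. In control replicate 3 the same ratio, over the other control libraries, ran from 1.40 for S100a14 to 1.92 for S100a13. All 8 tested members were highest in the third library of each group, and control replicate 3 was above Etv5 shRNA replicates 1, 2 and 4 for all 8. The part of transcript length in these differences between members was not tested.

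**Figure D3:**
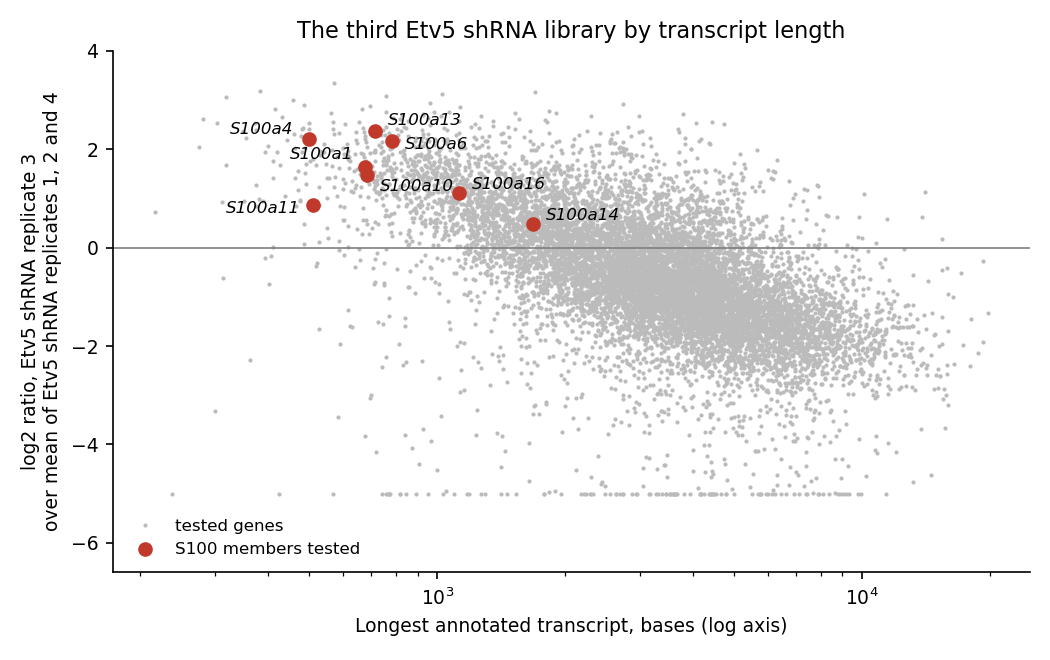
Log2 ratio of Etv5 shRNA replicate 3 over the mean of Etv5 shRNA replicates 1, 2 and 4 (y axis) against the longest annotated transcript in bases (log axis). Tested genes are in grey and the 8 tested S100 genes in red. Genes with very short transcripts, such as microRNAs, and with very long ones are not drawn. Ratios under -5 are drawn at -5. The S100 genes lie among short transcripts and above 0, from 1.39 times for S100a14 to 5.14 times for S100a13.

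Ratios of nearby members within a library, which do not depend on the scaling of that library, were compared for 3 pairs chosen after their values were seen. S100a11 over S100a10 was 1.46, 1.48, 0.904 and 1.20 in Etv5 shRNA libraries 1 to 4, against 1.05, 1.14, 0.960 and 1.05 in control libraries 1 to 4. Etv5 shRNA libraries 1, 2 and 4 were above all control libraries, and library 3 was below them. An exact two-sided permutation test gave a p of 0.257, adjusted over the 3 pairs 0.771. Without Etv5 shRNA replicate 3 the difference in log2 ratio was 0.39 with an exact p of 0.0286, the smallest that 35 assignments allow, and 0.0857 adjusted over the 3 pairs. None of these p-values allows for the choice of pairs after their values were seen.

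S100a6 over S100a4 was 5.16 ± 0.181 in Etv5 shRNA libraries and 4.95 ± 0.461 in control libraries (SD, n = 4 each), with an exact permutation p of 0.514, adjusted 0.771. It held in the third Etv5 shRNA library too, at 5.01, although both genes were far higher there. S100a1 over S100a13, genes that lie head to head with 250-base promoter windows that overlap by 104 bases, was 2.97 ± 0.909 in Etv5 shRNA libraries and 2.81 ± 0.491 in control libraries (SD, n = 4 each), with an exact permutation p of 0.83 and the same value adjusted. That ratio was lowest in Etv5 shRNA replicate 3, at 1.93, and the groups overlapped.

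**Figure D4:**
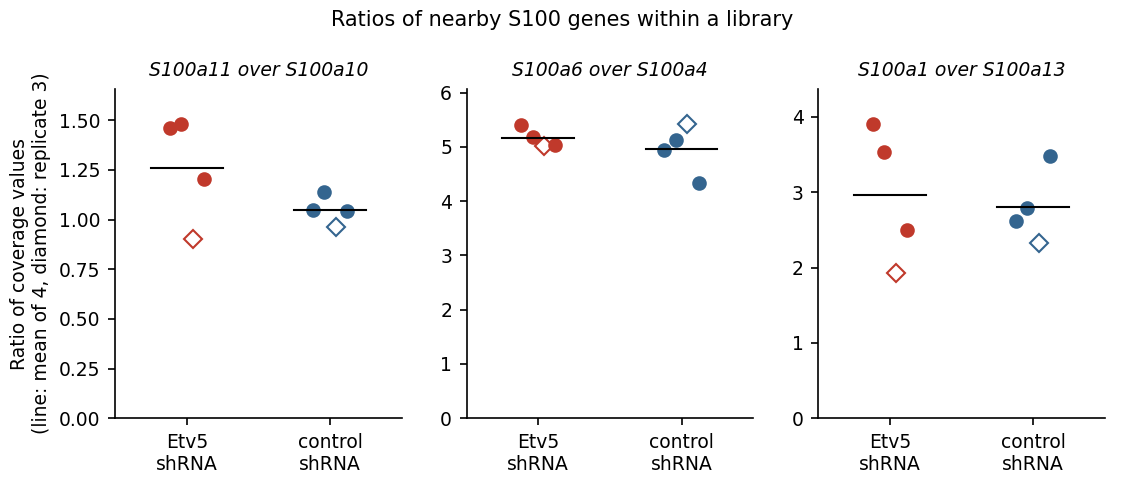
Ratio of coverage values of 3 pairs of nearby S100 genes in each library, Etv5 shRNA on the left and control shRNA on the right; lines are means of 4 and diamonds are the third libraries. S100a11 over S100a10 is higher in Etv5 shRNA libraries 1, 2 and 4 than in any control library, while S100a6 over S100a4 stays near 5 in all 8.

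Across the 7 libraries other than Etv5 shRNA replicate 3, S100a4 and S100a6 had a Pearson r of 0.97 on log2(value + 1), S100a4 and S100a13 of 0.96, and S100a13 and S100a16 of 0.94. S100a11 varied least with the others, with r between -0.10 (S100a16) and 0.62 (S100a10). These are descriptions over libraries that share control replicate 3, a length trend and a scaling. Among 7590 tested genes with a mean of at least 5, the genes most like S100a6 were Naa38 and Csrp1 (r = 0.998 and 0.996 over 7 libraries), those most like S100a4 were Htra2 and Dbndd2 (0.998 and 0.995), and those most like S100a13 were Spint2 and Rpl13a (0.995 each). Those most like S100a11 were Vapa and Nifk (0.985 and 0.984), those most like S100a10 were Glo1 and Chmp2a (0.99 each), and those most like S100a1 were Wdr45 and Tusc2 (0.99 each). S100a14 was most like Cbx1 and Tsc22d3 (0.99 each) and S100a16 most like Nmral1 and Tmem205 (0.99 each).

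Of 8 other S100 genes looked for, 7 were in the table and 2 were tested, and neither was called or had an unadjusted p under 0.05 (median log2 fold change 0.07, against -0.11 for all tested genes). S100a3, a gene of the hair cuticle in human and mouse, had 2.31, 2.63, 7.97 and 4.17 in Etv5 shRNA libraries 1 to 4, against 3.61, 4.23, 5.24 and 2.99 in control libraries 1 to 4, and like the members it was highest in replicate 3 of each group. S100a7a, the mouse relative of human psoriasin, had 5.30, 6.37, 4.96 and 6.20 in Etv5 shRNA libraries 1 to 4, against 3.94, 5.12, 6.54 and 4.60 in control libraries 1 to 4. Etv5 shRNA replicate 3 was the lowest of its group for S100a7a, unlike for the 8 tested members. Without it the log2 fold changes were -0.32 for S100a3 and 0.22 for S100a7a, and neither was called by limma. S100a2, S100a5, S100b, S100g and S100z were under 0.4 in every library.

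Receptors described for extracellular S100 proteins were measured as well, and none of the 6 tested was called in either direction or had an unadjusted p under 0.05 (median log2 fold change -0.22, against -0.11 for all tested genes). Ager, the gene of RAGE, and Cd36 lay under the filter, with Ager between 0.282 and 0.639 in Etv5 shRNA libraries and between 0.350 and 0.660 in control libraries, and Cd36 at 0 throughout. By p the first were Nptn and Alcam, with log2 fold changes of -0.29 each and adjusted p of 0.879 by limma, and then Tlr4, which averaged 2.57 ± 1.14 in Etv5 shRNA libraries and 3.20 ± 0.498 in control libraries (SD, n = 4 each; log2 fold change -0.30, adjusted p 0.879 by limma). For these 3 Etv5 shRNA replicate 3 was the lowest library, and without it the log2 fold changes were -0.04 for Nptn, -0.05 for Alcam and -0.02 for Tlr4. None of the 6 was called without that library either. Mcam, a receptor described for S100a8 and S100a9 in human, had a log2 fold change of 0.12 in all 8 libraries (adjusted p 0.886 by limma). Without Etv5 shRNA replicate 3 it was 0.28 (adjusted p 0.129). With the length trend removed as well, Mcam was called higher, at 0.29 with an adjusted p of 0.0495 by limma, beside 3.71% of all tested genes. The most abundant receptor was Bsg, with 152 ± 25.2 in Etv5 shRNA libraries and 164 ± 29.1 in control libraries (SD, n = 4 each).

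Among 11 tested intracellular partners, 1 was lower and none higher, beside 0.486% and 0.00852% of all tested genes, and the median log2 fold change was -0.15, against -0.11 for all tested genes. The list was chosen with earlier results of these data known, so its count does not test the partners as a set. Il1a, whose product leaves the cell together with S100a13, fell to 3.84, 4.08, 0.731 and 2.77 in Etv5 shRNA libraries 1 to 4, against 15.3, 17.6, 17.2 and 17.8 in control libraries 1 to 4. The groups were far apart, with a log2 fold change of -2.34 and an adjusted p of 0.0169 by limma. This adjusted p was between 0.0688 and 0.0901 when any 1 control library was left out, 0.0714 without Etv5 shRNA replicate 4, 0.0511 after scaling to equal sums and 0.0696 at a pseudocount of 0.1, while the log2 fold change stayed between -2.77 and -2.31 in these. Without Etv5 shRNA replicate 3 it was -1.99 with an adjusted p of 2.49e-05.

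The annexins to which S100 proteins dock were not called. Anxa2, the partner of S100a10, averaged 675 ± 149 in Etv5 shRNA libraries and 606 ± 88.5 in control libraries, and Anxa1, the partner of S100a11, averaged 277 ± 19.3 in Etv5 shRNA libraries and 287 ± 45.5 in control libraries (SD, n = 4 each). Cacybp, the calcyclin-binding partner of S100a6, averaged 48.7 ± 4.18 in Etv5 shRNA libraries and 40.1 ± 6.50 in control libraries (SD, n = 4 each; adjusted p 0.785), and Anxa11 averaged 46.6 ± 14.7 in Etv5 shRNA libraries and 60.1 ± 2.42 in control libraries (adjusted p 0.827 by limma). Without replicate 3 of either group Cacybp was called higher, with a log2 fold change of 0.39 and an adjusted p of 0.0235 by limma. In that setting, chosen after seeing the data, 3.58% of all tested genes were called higher.

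Of 19 other EF-hand calcium proteins tested, none was called or had an unadjusted p under 0.05, and the median log2 fold change was -0.05. With Etv5 shRNA replicate 3 left out, none was called and 2 had an unadjusted p under 0.05, against 18.8% of all tested genes. Calu, a calcium binder of the secretory pathway, had a log2 fold change of 0.02 in all 8 libraries (adjusted p 0.979 by limma) and 0.32 without that library (0.0897). It was called higher without replicate 3 of either group, at 0.31 with an adjusted p of 0.038 by limma, beside 3.58% of all tested genes. By p in all 8 libraries the first were Capn1, a calpain with a log2 fold change of -0.31 (adjusted p 0.713 by limma), Efhd2 at -0.31 (0.816) and Nucb1 at -0.27 (0.876). Of 12 tested genes that border the S100 cluster on chromosome 3, from Rab13 to Chtop, none was called either, and 1 had an unadjusted p under 0.05, beside 7.09% of all tested genes (median log2 fold change -0.22). Slc27a3, a fatty acid transport gene, had 1.89, 1.58, 1.50 and 2.18 in Etv5 shRNA libraries 1 to 4, against 2.88, 2.63, 2.60 and 2.57 in control libraries 1 to 4. All Etv5 shRNA libraries were below all control libraries, and groups did not overlap, in either direction, for 9.1% of all tested genes. The log2 fold change of Slc27a3 was -0.40 with an adjusted p of 0.387 by limma, and -0.35 with an adjusted p of 0.0947 without Etv5 shRNA replicate 3. Slc39a1 and Crtc2 followed, with log2 fold changes of -0.32 and -0.25 and adjusted p of 0.863 each, and of -0.10 and -0.11 without that library. Of the 7 tested epithelial markers none was called in all 8 libraries without weights or removal of the length trend. Krt14 then had a log2 fold change of 0.64 (adjusted p 0.564 by limma), Krt7 of 0.50 (0.776) and Cdh1 of 0.45 (0.806). Cdh1, which encodes E-cadherin, was called higher without Etv5 shRNA replicate 3, with a log2 fold change of 0.71 and an adjusted p of 0.00455 by limma. In that setting 1.08% of all tested genes were called higher. With the length trend removed in all 8 libraries Cdh1 was also called higher, at 0.62 (adjusted p 0.0228 by limma). There 22 of 11561 tested genes were called higher. With Etv5 shRNA replicate 3 left out as well, Cdh1 and Krt14 (0.47, adjusted p 0.0103 by limma) were called higher, beside 3.71% of tested genes. With libraries weighted by quality 4 of the 7 markers were called higher, beside 12.9% of tested genes.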

How the data were processed

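RNA of 8 libraries was measured, in groups and replicates taken from the sample titles. Per the labels' protocols, total RNA was made into libraries with an Illumina TruSeq kit, and the submitters' processing notes name the aligner STAR 2.7.10a and the genome mm10. The deposited table gives 1 signal value per gene and library, with columns that are bedGraph coverage tracks per the file headers; that the authors averaged coverage over each gene and scaled it to depth was read from the values. The sources used here do not give the averaging program, its annotation or its use of strand. From the signal, log2(value + 1) was computed for the 11731 genes that reached 0.5 in 4 or more libraries. Groups were compared by limma 3.58.1 (R 4.3.3) with a trended prior variance and Benjamini-Hochberg adjustment over all tested genes (called under 0.05). Genes were not filtered anew where libraries were left out. The steps were tested on simulated data. Members under the filter and ratios had exact permutation tests. Lengths, loci and shared 50-base stretches came from GENCODE mouse annotation on mm10, and promoters from RefSeq. The members and gene lists were chosen with earlier results of these data known. Named were all members, from each other list the called genes and otherwise the 3 tested genes with the lowest p, the 2 genes most alike to each tested member, and Etv5; Anxa1, Anxa2, Bsg, Mcam, Calu, Ager and Cd36 and the untested S100 genes were added with their values known. Alternatives were other scalings, filters and pseudocounts, a replicate block, removal of the length trend (lowess, span 0.3), array quality weights and libraries left out.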

Additional observations from a re-analysis of the deposited data

Results flagged for a closer look

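In groups of 4 libraries, a value was picked out when its gap to the nearest other library, as a share of the group's range, exceeded Dixon's 95% critical value. Of 25 groups screened, over the 10 members and the 3 ratios, 8 passed. The rule would pass about 1 in 20, or 1.25, if groups were independent and values normal. These groups share libraries and some values lie at the floor, so the count is not a comparison with chance. In 7 of the 8 the library was Etv5 shRNA replicate 3, as the highest: S100a6 at 6318, S100a4 at 1261, S100a10 at 992.9, S100a11 at 897.2, S100a1 at 64.66, S100a13 at 33.43 and S100a8 at 0.7109. The other was control shRNA replicate 1, where S100a9 was listed at 0.2628 and in every other library at 0. With its other values tied at 0, that group passed whatever the value. The 7 values come from 1 library, already described above as standing apart, and are not independent of each other.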

How the results depend on the processing

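Across the other settings, 19 for most members, no S100 member changed its call except S100a11, S100a13 and S100a16. With the length trend removed and Etv5 shRNA replicate 3 left out, 429 genes were called higher and 511 lower, 1 member was higher (S100a11, log2 fold change 0.50), and S100a1 (-0.13), S100a4 (-0.14), S100a6 (-0.089) and S100a13 (-0.32) turned negative. With array quality weights the counts were 1513 and 1670, with 1 member higher (S100a11, 0.43) and 2 lower (S100a13, -0.42, and S100a16, -0.32), while S100a1 (-0.096), S100a4 (-0.28) and S100a6 (-0.14) turned negative. Without replicate 3 of either group they were 420 and 625, with 1 member higher (S100a11, 0.46), and S100a1 (-0.13), S100a4 (-0.14), S100a6 (-0.021) and S100a13 (-0.25) turned negative. With the length trend removed in all 8 libraries 22 genes were called higher and 92 lower, and S100a1 (-0.041) and S100a13 (-0.063) turned negative. Genes called higher numbered 7 under median-of-ratios scaling, 0 with equal sums, 8 after quantile normalisation, 3 with no filter and 0 with a pseudocount of 0.1, under which 37 were lower; the cause was not tested. Signs also turned for S100a14 under median-of-ratios scaling (0.0089) and quantile normalisation (0.12), for S100a4 (-0.021) and S100a16 (0.017) under quantile normalisation, and for S100a13 with equal sums (-0.0033). Leaving out each library in turn, genes called higher ranged from 0 to 127 and lower from 28 to 241, no member was called, and the members' median ranged from -0.26 to 0.39. Log2 fold changes then ranged from -0.28 to 0.27 for S100a1, -0.31 to 0.54 for S100a4, -0.23 to 0.60 for S100a6, -0.062 to 0.48 for S100a10, 0.33 to 0.68 for S100a11, -0.47 to 0.33 for S100a13, -0.15 to -0.026 for S100a14 and -0.31 to -0.11 for S100a16. The lowest value of S100a1, S100a4, S100a6, S100a10, S100a11, S100a13 and S100a16 came without Etv5 shRNA replicate 3. The log2 ratio of S100a11 over S100a10 ranged from 0.16 to 0.39, of S100a6 over S100a4 from -0.0012 to 0.11 and of S100a1 over S100a13 from -0.11 to 0.23. With the replicate number as a replicate block, 1 gene was called higher, 50 lower and no member; same-numbered libraries had correlations of deviations of 0.549, 0.0924, 0.794 and 0.51, and replicate 3 alone correlated best with its own number, so the numbers were not taken as pairs. The signal values hold no read counts, so depth sets an unknown limit on S100a8, S100a9, S100a14 and S100a16.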
